A study of Dugesia japonica with 15 samples.

Results

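This account concerns 51 genes of the planarian *Dugesia japonica* that were lower in regenerating trunk fragments than in intact animals and lower still in fragments treated with RNA interference (RNAi) against DjTcf4. They are 51 of the 38792 rows of the deposited expression table. They were chosen from the measured values. Each has an ID with the prefix DJKW and a median of at least 5 CPM, read counts scaled to a common library total, in control intact animals. Each had a log2 ratio of at most -0.4 for control fragments over control intact animals, above -0.4 for RNAi over control in intact animals, and at most -0.4 for RNAi over control in fragments. Ratios were taken between group medians after adding 0.5 CPM, and every RNAi fragment library had to lie below every control fragment library. All 3 contrasts of the study, and the 2 that follow from them, were thereby used in the choice, and the direction of each of the 51 in all but the intact RNAi contrast is fixed by it. The values are therefore given as a description.

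Planarians rebuild lost body parts from neoblasts, the dividing stem cells of the adult, whose progeny leave the cell cycle and become specialised cells in the new tissue and in the old fragment. In other animals, TCF proteins are DNA-binding partners of β-catenin and set the output of Wnt signalling, which in planarians helps fix the head-to-tail axis. A trunk fragment has lost its head and tail, and its old tissue is remodelled while new tissue forms. In whole-animal RNA, fewer cells of a type and less RNA per cell cannot be told apart.

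The libraries were made from polyadenylated RNA of groups of animals. All carried an RNAi treatment, with control RNAi or DjTcf4 RNAi, and came from intact animals or from trunk fragments at 5 days post amputation (5 dpa). Each of the intact groups had 4 libraries, as did control fragments, while fragments with DjTcf4 RNAi had 3 (replicates 1, 3 and 4). The labels give neither the target of the control RNAi, nor the strain, nor how many animals made a pool. They do not say whether replicates are separate pools, so the spread between them may be technical. A 5 dpa trunk was compared with a whole animal, so the amputation ratio holds both regeneration and the parts that were cut away. Total counts per library ran from 8136366 to 12224216.

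The deposited table does not pair IDs with gene names, so the row of DjTcf4 was not identified, the knockdown was not checked here, and cell type markers could not be looked up. None of the 51 genes can be given a name or a role. IDs are printed for 2 members by a fixed rule, and other members are called by their rank in control intact CPM, from rank 1 at a median of 3003 CPM to rank 51 at 5.02 CPM. CPM is not divided by transcript length, so a rank orders read counts and not transcript numbers.

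By the rule, the 51 genes were lower in control fragments than in control intact animals and lower again in RNAi fragments, and the sizes of these steps are given here. Between the intact groups the log2 ratio lay within 0.2 of 0 in 37 members, below -0.2 in 10 and above 0.2 in 4. Across the 51, the median level left in control fragments was 54.6% of control intact, from 23.3% to 75.6%. In DjTcf4 RNAi fragments it was 33.2%, from 5.74% to 55.1%. Taken gene by gene, RNAi fragments held a median of 65.4% of the control fragment level, from 24.6% to 74.7%. By group the medians over members were 71.0 CPM in control intact, 63.6 CPM in DjTcf4 RNAi intact, 29.1 CPM in control 5 dpa and 15.6 CPM in DjTcf4 RNAi 5 dpa. The log2 ratio for amputation in control had a median of -0.80 (-1.95 to -0.40), and that for RNAi at 5 dpa had a median of -0.61 (-1.54 to -0.42). In 11 of 51 members the RNAi step was larger than the amputation step. Only 4 members were at -1 or below in both.

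**Figure D1:**
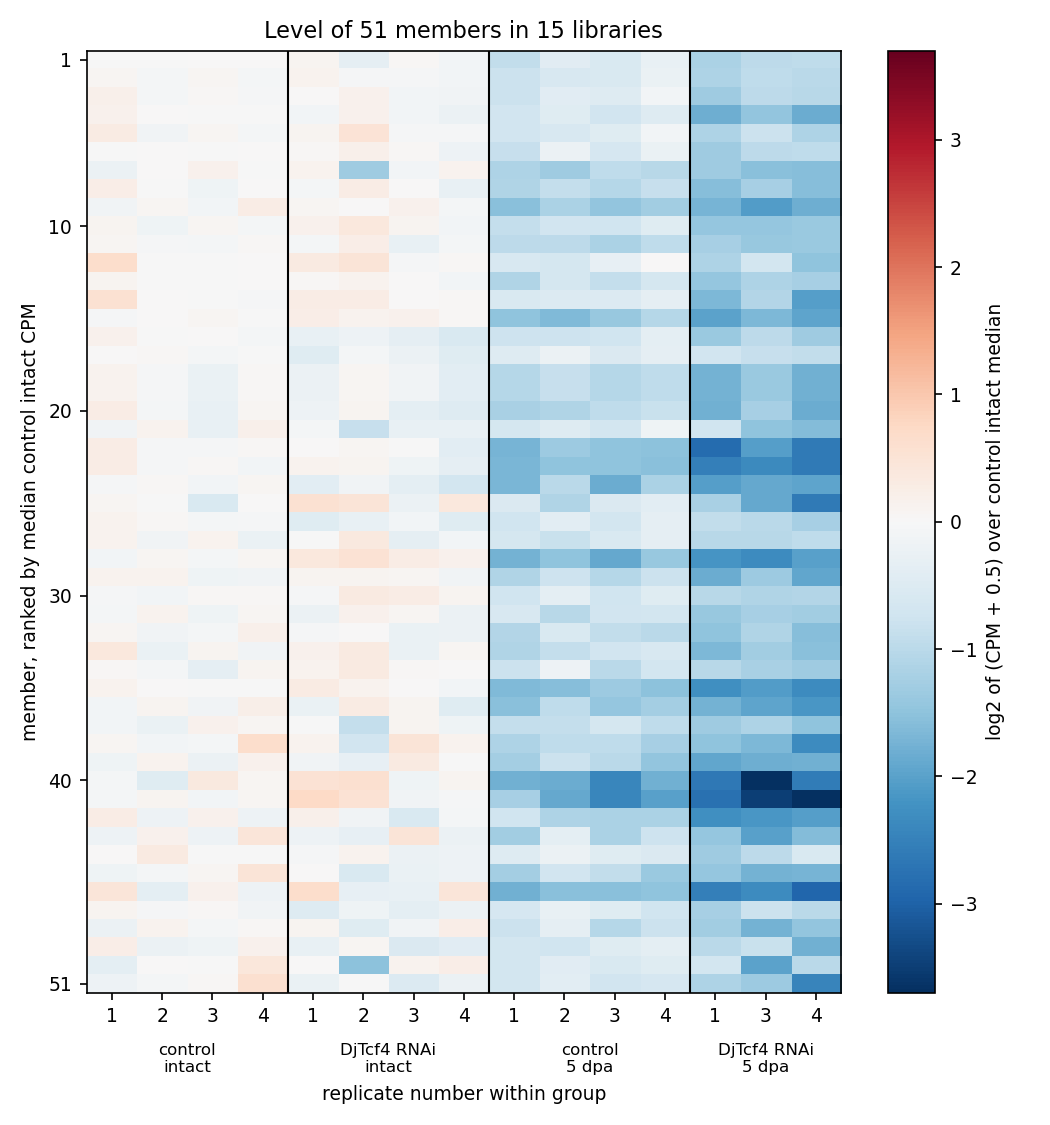
Level of each of the 51 members (rows, by rank in median control intact CPM) in each of 15 libraries (columns, by group and replicate), as log2 of (CPM + 0.5) over the control intact median. The control 5 dpa columns are paler blue than the DjTcf4 RNAi 5 dpa columns, and the intact columns are close to white apart from single cells such as rank 7 and rank 50 in DjTcf4 RNAi intact replicate 2.

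**Figure D2:**
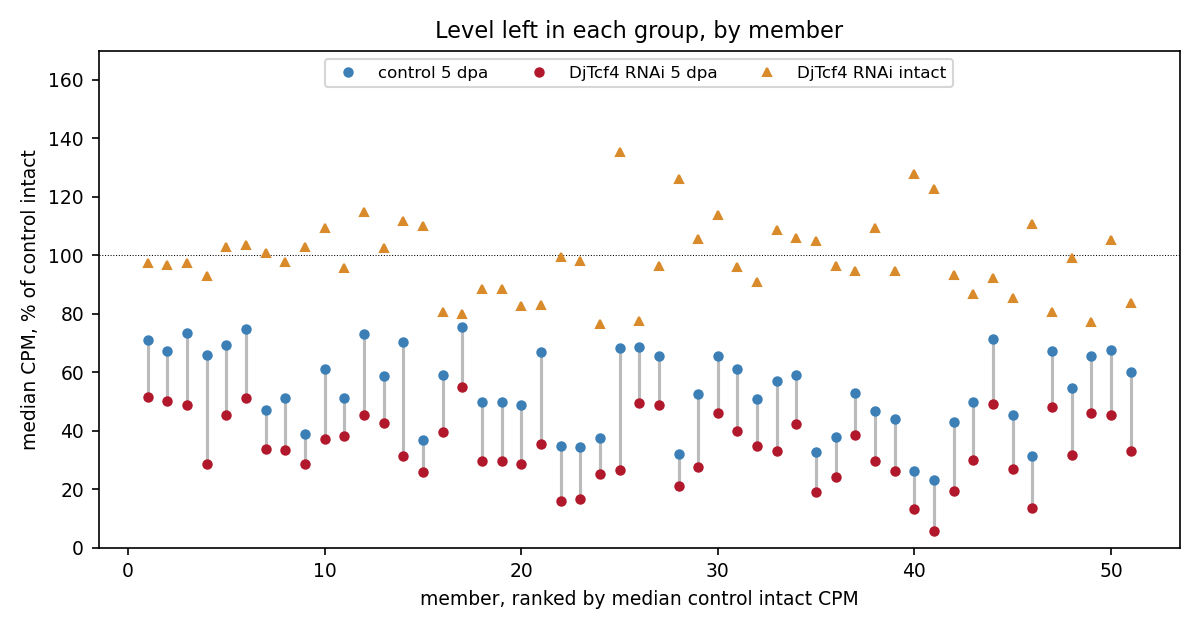
Median CPM as a percentage of the control intact median for each member, in control 5 dpa (blue), DjTcf4 RNAi 5 dpa (red) and DjTcf4 RNAi intact (orange triangles); grey lines join the 5 dpa groups. Control 5 dpa values lie between 23.3% and 75.6% and RNAi 5 dpa values between 5.74% and 55.1%.

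Together the members held 1.83% to 2.02% of all counts in the 4 control intact libraries and 1.73% to 1.95% in the 4 DjTcf4 RNAi intact libraries. Their share was 1.02%, 1.26%, 1.18% and 1.44% in control 5 dpa replicates 1, 2, 3 and 4. It was 0.742%, 0.864% and 0.791% in DjTcf4 RNAi 5 dpa replicates 1, 3 and 4. The separation of these shares at 5 dpa follows from the rule, which requires it of each member. Most of this share came from the 4 members of highest rank. Without these 4 it was 0.404% to 0.532% in control 5 dpa and 0.292% to 0.335% in DjTcf4 RNAi 5 dpa.

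DJKW.28939 had the highest control intact count of the 51, and its 4 control intact libraries were close together at 2967, 2989, 3048 and 3017 CPM. In DjTcf4 RNAi intact it stood at 3211, 2406, 3072 and 2772 CPM, so replicate 2 was the low one. In control 5 dpa it stood at 1601, 2262, 2015 and 2484 CPM, a wide spread with replicate 1 lowest. In DjTcf4 RNAi 5 dpa it stood at 1346, 1545 and 1554 CPM, and the highest of these lay just under control replicate 1. The means were 3005 ± 35.1 and 2090 ± 379 CPM in control intact and control 5 dpa (SD, n = 4 each) and 1482 ± 117 CPM in DjTcf4 RNAi 5 dpa (SD, n = 3). Its log2 ratio was -0.49 for amputation and -0.47 for RNAi at 5 dpa. Its counts were fractional in 14 of 15 libraries. A fractional count can arise where a read fits more than 1 gene, and the level of such a gene is uncertain.

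The members of ranks 2 and 3 had like profiles. Rank 2 stood at 1714, 1993, 2023 and 2505 CPM in control 5 dpa and at 1354, 1559 and 1491 CPM with RNAi. Rank 3 stood at 1579, 2072, 1965 and 2538 CPM in control 5 dpa and at 1115, 1403 and 1340 CPM with RNAi. In these 3 genes of highest rank, control 5 dpa replicate 1 was the lowest control fragment and replicate 4 the highest. The groups did not overlap, by the rule, but the lowest control was nearer to the RNAi libraries than to the highest control in each of them.

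The member of rank 4 had a lower control intact median, at 2163 CPM, and a lower RNAi ratio at 5 dpa than ranks 1 to 3. Its control intact libraries held 2404, 2186, 2140 and 2137 CPM and its DjTcf4 RNAi intact libraries 1999, 2395, 2019 and 1858 CPM, so the intact groups overlapped. Control 5 dpa libraries held 1313, 1591, 1314 and 1539 CPM. DjTcf4 RNAi 5 dpa libraries held 620, 787 and 606 CPM, all far below the lowest control. The control fragment median was 2.30 times the RNAi fragment median. This member's counts were fractional in all 15 libraries.

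Ranks 5 to 10 lay between 456 and 1057 CPM in control intact. Rank 6 was the steadiest gene in control intact, at 1042, 1051, 1045 and 1046 CPM, and stood at 582, 897, 684 and 884 CPM in control 5 dpa and at 423, 534 and 540 CPM with RNAi. Rank 9 had the deepest amputation step of these, with 38.8% of the control intact level left in control fragments and 28.5% in RNAi fragments. Rank 10 was at 249, 281, 276 and 333 CPM in control 5 dpa and at 168, 170 and 175 CPM with RNAi. Its RNAi libraries lay closer together than its controls. Rank 7 had 421, 377, 486 and 459 CPM in control 5 dpa and 373, 318 and 315 CPM with RNAi. That gene passed narrowly, since its highest RNAi library was 0.989 times its lowest control.

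**Figure D3:**
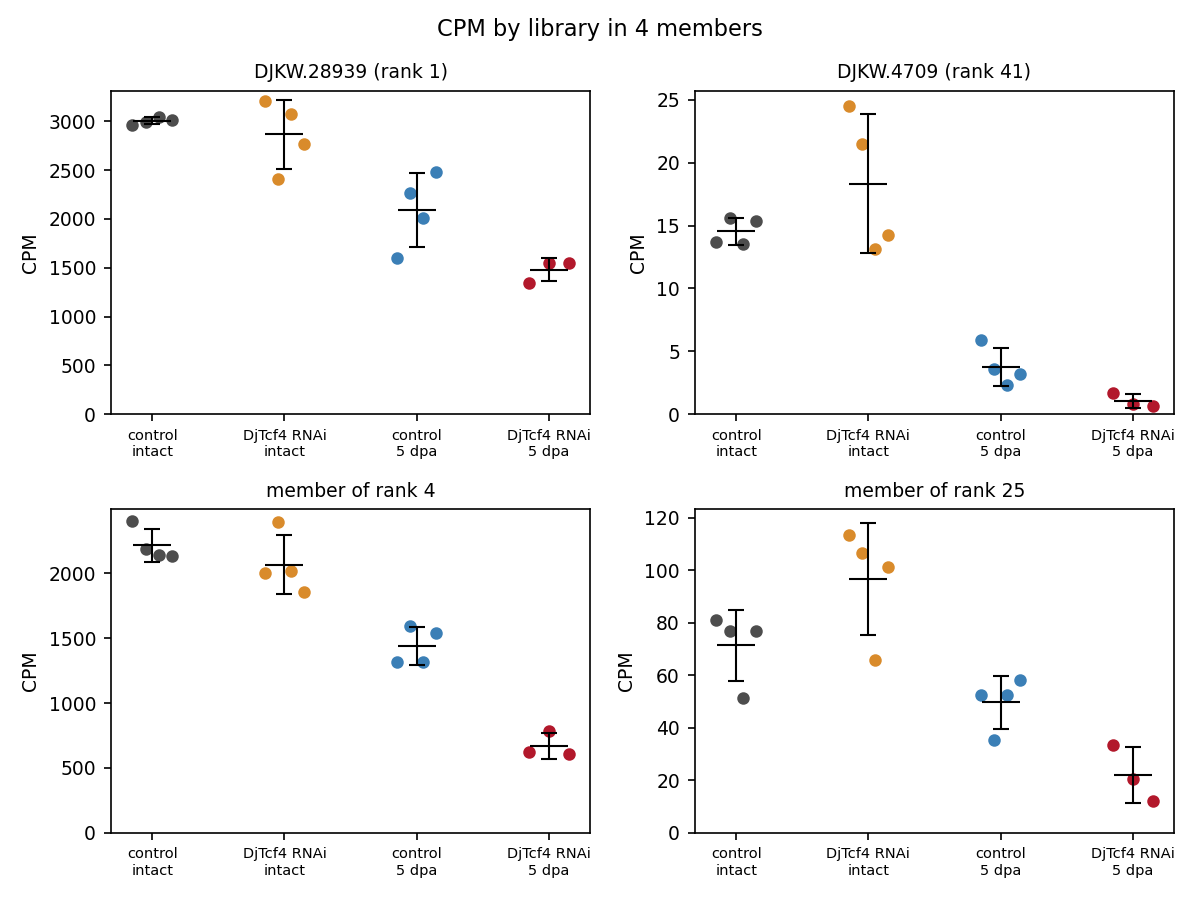
CPM in each library (points) with the group mean and SD (black) for DJKW.28939, DJKW.4709 and the members of ranks 4 and 25. In all 4 panels the 3 DjTcf4 RNAi 5 dpa points lie below the 4 control 5 dpa points, as the rule requires, and the gap is wide in rank 4 and narrow in rank 25 and DJKW.28939.

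The member with the lowest RNAi ratio at 5 dpa was DJKW.4709, at a log2 ratio of -1.54. It stood at 13.7, 15.6, 13.5 and 15.4 CPM in control intact and at 24.5, 21.5, 13.1 and 14.2 CPM in DjTcf4 RNAi intact. In control 5 dpa it stood at 5.87, 3.56, 2.32 and 3.21 CPM, and in DjTcf4 RNAi 5 dpa at 1.73, 0.835 and 0.678 CPM. The RNAi libraries with the lower values each held 8 counts of it, against 21.7 to 68 counts in the control 5 dpa libraries, so counting error alone is large here. With 2 CPM added in place of 0.5 its log2 ratio was -0.93. Its counts were fractional in 8 libraries.

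The RNAi log2 ratio at 5 dpa was -1 or below in 7 members, DJKW.4709 and rank 4 among them. Rank 25 stood at 52.6, 35.3, 52.5 and 58.3 CPM in control 5 dpa and at 33.3, 20.4 and 12.03 CPM with RNAi. In intact animals this gene was at 81.2, 76.7, 51.4 and 76.7 CPM in control and at 114, 106, 65.7 and 101 CPM with RNAi. Its intact RNAi ratio of 0.43 was the highest of the 51, so it was numerically higher with RNAi before amputation and lower after it. The intact groups overlapped through DjTcf4 RNAi intact replicate 3.

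Rank 14 stood at 219, 230, 229 and 261 CPM in control 5 dpa and at 103, 155 and 79.4 CPM with RNAi. Its controls lay close together while its RNAi libraries did not, and its counts were fractional in all 15 libraries. Ranks 22 and 23 had medians of 85.5 and 81.9 CPM in control intact. Rank 22 stood at 25.6, 33.7, 30.01 and 29.7 CPM in control 5 dpa and at 11.3, 20.6 and 13.6 CPM with RNAi. Rank 23 stood at 25.2, 28.7, 29.1 and 27.6 CPM and at 13.7, 15.6 and 13.1 CPM. Rank 42 stood at 7.69, 5.78, 5.67 and 5.60 CPM in control 5 dpa and at 2.34, 2.59 and 2.85 CPM with RNAi. In ranks 22, 23 and 42 the amputation ratio, at -1.50, -1.52 and -1.15, was somewhat lower than the RNAi ratio at 5 dpa, at -1.10, -1.01 and -1.01.

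The next 3 by RNAi ratio were ranks 46, 29 and 21, with log2 ratios of -0.98, -0.91 and -0.91. Rank 29 stood at 21.8, 27.7, 22.7 and 27.4 CPM in control 5 dpa and at 13.1, 18.4 and 12.2 CPM with RNAi. Rank 21 was at 52.3 CPM in DjTcf4 RNAi 5 dpa replicate 1, close under its lowest control of 54.2 CPM, but at 31.1 and 28.3 CPM in replicates 3 and 4. The log2 RNAi ratio at 5 dpa was above -0.5 in 13 of the 51. By level, 6 members had at least 1000 CPM in control intact, 14 had 100 to 1000, 27 had 10 to 100 and 4 had under 10. The median RNAi ratio at 5 dpa was -0.57, -0.59, -0.66 and -0.58 in these classes. The median amputation ratio was -0.51, -0.96, -0.95 and -0.60.

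Some members may not be independent genes. In 15 of 51 members (29.4%) at least 1 library had a fractional count, against 19.1% of the 2473 other genes that met the rule's intact and amputation conditions. That difference was not tested. Ranks 18 and 19 had identical values in all 15 libraries, 59.4 CPM in control 5 dpa and 35.3 CPM with RNAi as medians, and rank 20 was close to them at 54.3 and 32.0 CPM. Their ID numbers lie within 5 of one another. Ranks 8, 22 and 23 formed another such set, as did DJKW.4709 with rank 40, and rank 9 with rank 45. In all, 10 members fell in 4 sets of close ID numbers. Whether ID numbers follow position in the genome is not stated in the labels or the table.

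Rows numbered within 5 of these sets did not all share the profile. Of 18 such rows that were not members and had at least 5 CPM in control intact, 5 were at or below -0.4 for amputation in control. One of these, beside ranks 18 to 20, was at 147, 136, 71.0 and 48.4 CPM, given here in the order of intact control, intact RNAi, fragment control and fragment RNAi. It met each ratio but its libraries overlapped at 5 dpa. Another row, beside DJKW.4709, was at 2834, 2989, 2188 and 1506 CPM and failed only the amputation ratio, at -0.37. Another, near ranks 22 and 23, was at 213, 243, 353 and 412 CPM, higher in fragments.

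In intact animals the log2 ratio of DjTcf4 RNAi over control ran from -0.38 to 0.43 over the 51, with a median of -0.04. The rule sets its lower end. Every RNAi intact library lay below every control intact library in 4 members, ranks 16, 24, 26 and 47, where 1.32% of the 17094 rows tested did so. Rank 16 was at 204, 181, 188 and 174 CPM in control and at 151, 161, 147 and 124 CPM with RNAi. Rank 28 was the 1 member with every RNAi intact library above every control, against 2.58% of the rows tested. It stood at 49.9, 55.8, 50.5 and 56.4 CPM in control and at 70.2, 77.7, 63.9 and 59.5 CPM with RNAi, then at 17.1 CPM in control 5 dpa and 11.3 CPM in DjTcf4 RNAi 5 dpa as medians.

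The 4 intact RNAi libraries do not enter the ratios at 5 dpa, but their median decides the intact condition of the rule, which the members and the 2473 other genes lower at 5 dpa both had to meet. The levels in these libraries are therefore partly set by the choice and are given as a description. Across the 51, the median level in DjTcf4 RNAi intact replicates 1, 2, 3 and 4 was 101%, 106%, 93.4% and 92.3% of control intact. In the 2473 others it was 91.4%, 44.1%, 109% and 91.8%. Replicate 2 was past the midpoint between control intact and control 5 dpa, on the log2 scale, in 9 of 51 members (17.6%) and in 2050 of the 2473 others (82.9%). The 9 members were ranks 1, 7, 21, 26, 37, 38, 45, 48 and 50. Rank 7 was at 372 CPM in replicate 2 and at 867 to 1024 CPM in the other 3, and rank 50 was at 1.77 CPM against 6.02 to 7.20 CPM. Genes are not replicates, so the difference between these sets has no test.

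**Figure D4:**
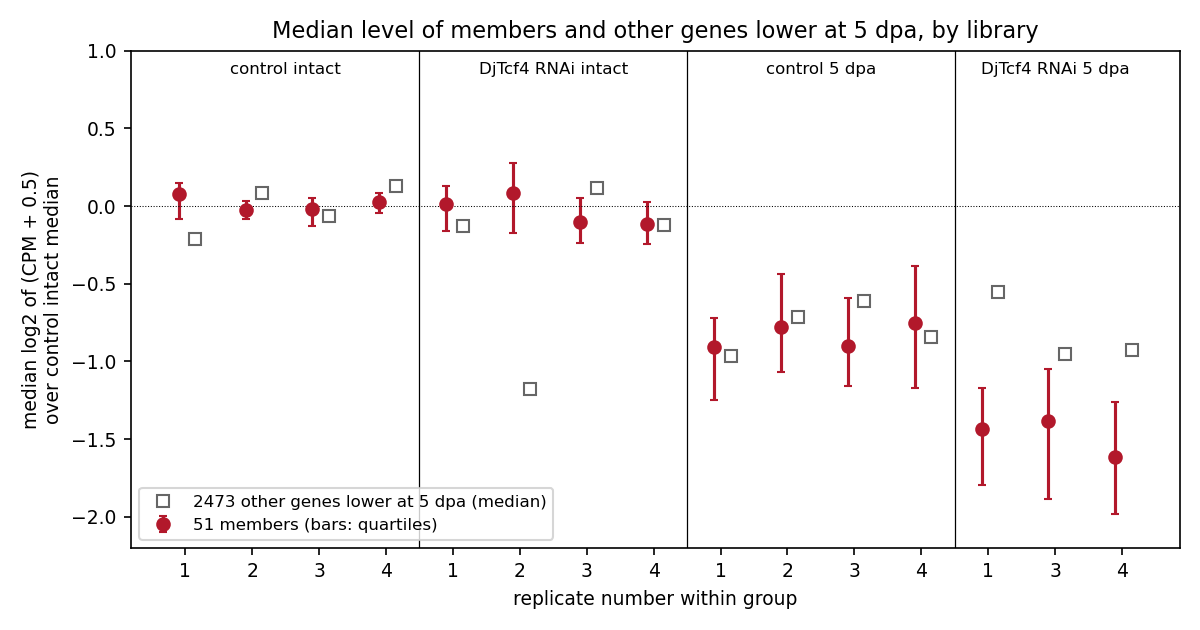
Median log2 level relative to the control intact median in each library, for the 51 members (red, bars are quartiles over members) and for the 2473 other genes lower at 5 dpa (grey squares). In DjTcf4 RNAi intact replicate 2 the members are at 0.09 and the others at -1.18; in DjTcf4 RNAi 5 dpa replicate 1 the members are at -1.43 and the others at -0.55.

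The contrast in replicate 2 was alike in the classes from 10 to 1000 CPM, smaller below 10 CPM and not seen above 1000 CPM. It also differed with the separation of libraries at 5 dpa. At 100 to 1000 CPM in control intact the 14 members stood at 107% of control intact in replicate 2 and the 332 others at 42.3%. At 10 to 100 CPM the 27 members stood at 107% and the 1587 others at 42.9%. Above 1000 CPM both were high, at 111% for 6 members and 122% for 14 others. Below 10 CPM the 4 members stood at 85.5% and the 540 others at 49.7%. Of the genes that had the same ratios as the members but overlapping libraries at 5 dpa, 134 in number, the median in replicate 2 was 41.6%. In 46 genes whose libraries were separated in the same direction but by a smaller ratio it was 92.3%, and in 28 separated in the opposite direction 63.9%. Among the others, the 625 whose RNAi 5 dpa libraries varied no more than the median member stood at 67.6%. The part of low spread in this contrast was not tested beyond these values.

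Members had a smaller spread between replicates than the other genes lower at 5 dpa. The separation condition favours a small spread in the 5 dpa groups. It uses no control intact library, but genes of low spread in some groups may have it in others. The control intact spread is therefore not free of the choice. The members also had more counts, with a median of 71.0 CPM in control intact against 25.05 CPM in the others, and the part of level in the spread was not tested. The median coefficient of variation was 11.5% in control intact, 14.3% in control 5 dpa and 14.5% in DjTcf4 RNAi 5 dpa, against 16.0%, 19.96% and 23.5% in the others. Among control fragments, replicate 1 was the lowest library in 25 of 51 members, and replicates 2 and 4 were the highest in 22 and 21. By median log2 deviation from the group median, replicate 1 was the lowest control fragment in both sets. It stood at -0.126 in the members and -0.133 in the others. Among RNAi fragments, replicate 3 was highest in 25 and replicate 4 lowest in 23. In the others, RNAi fragment replicate 1 stood at 68.2% of control intact while replicates 3 and 4 stood at 51.7% and 52.7%. In the members the same libraries stood at 37.0%, 38.3% and 32.7%.

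When the rule was applied without 1 library at a time, that library gave a value the choice had not used. Without DjTcf4 RNAi 5 dpa replicate 3, 66 genes met the rule, and in these replicate 3 had a median log2 ratio of -0.39 to the control fragment median and lay below every control in 71.2%. Without replicate 4, 67 genes met it, with a median of -0.54 in replicate 4 and 73.1% below every control. Without replicate 1, 165 genes met it, and in these replicate 1 had a median of 0.01 and lay below every control in 31.5%. The other genes lower at 5 dpa were below every control in 31.0%, 28.7% and 9.92% for replicates 3, 4 and 1, with median log2 ratios of -0.13, -0.10 and 0.31. Of the 51 members, 44 met the rule without RNAi replicate 1, 45 without replicate 3 and 43 without replicate 4. A member's libraries stay separated when an RNAi library is left out, so only its RNAi ratio at 5 dpa could fail. These counts are therefore largely set by the choice. RNAi replicate 1 thus mainly kept other genes out, since 165 genes met the rule without it and 51 with it. Leaving out a control fragment in the same way gave 43 to 70 genes, in which the control left out had a median log2 ratio to the RNAi median of 0.38, 0.66, 0.58 and 0.85 for replicates 1, 2, 3 and 4. In the other genes lower at 5 dpa the same ratios were -0.12, 0.15, 0.26 and 0.0039, so the control libraries also differed from one another there. The controls or RNAi libraries that remained had still been used in each choice, and 1 library allows no test. The other genes were those that failed the RNAi ratio at 5 dpa or the separation in the libraries that remained. Their difference from the chosen genes is therefore partly set by the choice.

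All 51 members passed the filter on low counts, and edgeR's quasi-likelihood model over 17094 rows gave calls at a Benjamini-Hochberg adjusted p under 0.05. For RNAi at 5 dpa, 2 members were called lower, ranks 4 and 23, where 0.041% of the rows tested were called lower. Its unadjusted edgeR p was under 0.05 in 49 of 51 members, which the rule favours, and in 553 of the 17094 rows tested. DESeq2 called 16 lower, where 0.211% of rows were, and limma-voom 12, where 0.234% were. The fitted edgeR log2 fold changes of ranks 4 and 23 were -1.13 (SE 0.139) and -1.002 (SE 0.157). DJKW.4709 had -1.81 (SE 0.383) and was not called, nor was DJKW.28939 at -0.53 (SE 0.128). The median over the 51 was -0.68, beside -0.0019 over all rows. For amputation in control, 42 were called lower, where 16.1% of all rows were, with a median of -0.78 beside 0.036. For amputation with DjTcf4 RNAi, 50 were called lower, where 6.67% of all rows were, with a median of -1.44 beside -0.048. The exception was rank 50.

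In intact animals edgeR called 0 members for RNAi, where 0.0117% of all rows were called lower. Its unadjusted p was under 0.05 in 5 of 51 members and in 1199 of the 17094 rows tested. DESeq2 called 0, where 0.176% of rows were called lower, and limma-voom called 1, where 0.222% were. For the interaction, the difference between the RNAi effects at 5 dpa and in intact animals, edgeR called 0 members, where 0.00585% of all rows were called lower. The unadjusted edgeR p was under 0.05 in 33 of 51 members and in 593 of the 17094 rows tested. DESeq2 called 5 lower, where 0.0468% of rows were, and limma-voom 2, where 0.0293% were. The median interaction over the 51 was -0.66, beside -0.038 over all rows. Because the rule used each contrast, nothing is read from these counts. All 15 libraries enter the 1 fit that gave each contrast. With DjTcf4 RNAi intact replicate 2 left out, edgeR called 10 members lower for RNAi at 5 dpa, where 0.148% of the 16922 rows then tested were. The cause of this change was not tested.

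Every control fragment library lay below every control intact library in 46 members, where 21.4% of all rows tested and 78.2% of the 2473 others did so. The rule's amputation ratio, which the others met too, favours this. The 5 exceptions were ranks 5, 12, 21, 25 and 34. In 48 members every RNAi fragment library lay below every RNAi intact library, where 9.41% of all rows did so. In the 2473 others this held for 18.7%, with replicate 2 of the intact group low in most of them. The requirement of every RNAi fragment below every control fragment was met by 2.6% of all rows tested.

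The 51 are what remained after successive conditions. Of 28999 DJKW rows, 11494 had at least 5 CPM in control intact. Of these, 3068 met the amputation ratio, 2524 also the intact RNAi ratio, 185 also the RNAi ratio at 5 dpa, and 51 also the separation. A further 11 genes met all but the intact RNAi ratio. The share of genes at or below -0.4 in intact RNAi animals was 17.7% both among the 62 genes that met the other conditions and among all 3068 genes lower at 5 dpa. Just inside the RNAi threshold at 5 dpa was a gene at 215 CPM in control and 160 CPM with RNAi (log2 ratio -0.42), and just outside a gene at 48.8 and 37.1 CPM (-0.39). Just inside the amputation threshold was rank 17 at -0.403, and just outside a gene at 178 CPM in control intact and 135 CPM in control 5 dpa (-0.395). Just inside the intact RNAi threshold was rank 24 at -0.38, and just outside a gene at -0.403. Just inside the level threshold was rank 51 at 5.02 CPM, and just outside a gene at 4.97 CPM.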

How the data were processed

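Values in the authors' deposited table are expected counts, of which 8.23% are fractional. Bowtie2, HISAT2, RSEM and DESeq2 appear in the submitters' processing notes without role or version. Genome build and annotation: not given in the sources used here. No columns were left without a sample. The 51 members and the lists were chosen with earlier results of these data known. CPM is the count divided by the column sum over all rows. Fits used counts rounded to whole numbers, edgeR 4.0.16 in R 4.3.3 with filterByExpr (minimum count 10, total 15), TMM scaling, 1 robust quasi-likelihood model over 15 libraries and Benjamini-Hochberg adjustment over 17094 rows; SEs were taken as |log2 fold change| over the root of F. Members were described by a fixed rule: the 10 highest by control intact CPM and the 10 lowest by RNAi ratio at 5 dpa, with an ID printed for the first of each. The split of other genes by level, ratio, separation and spread in the intact RNAi libraries was chosen after the data were seen. Alternatives were limma 3.58.1 (voom, quality weights), DESeq2 1.42.0, other scalings, filters and rule settings, the replicate block and leaving out each library. The SDs and SEs given include variation between libraries, and no interval from counts alone is given.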

Additional observations from a re-analysis of the deposited data

Results flagged for a closer look

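Of 66 group values examined in groups of 4, 3 had a sample far from the others; chance marks about 1 in 20. The member of rank 25 was at 51.4 CPM in control intact replicate 3, against 76.7 to 81.2 CPM in the other 3. The member of rank 14 was at 481 CPM in control intact replicate 1, against 318 to 329 CPM. The member of rank 42 was at 7.69 CPM in control 5 dpa replicate 1, against 5.60 to 5.78 CPM.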

How the results depend on the processing

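The number of members was 51 with the rule as given. It was 185 with no separation required, and leaving out a library gave 43 to 165, the highest without DjTcf4 RNAi 5 dpa replicate 1. The other settings gave 39 to 65; TMM library sizes gave 51, of which 46 were the same genes, and a log2 threshold of 0.5 gave 39, of which 34 were. With a group mean 61 genes met the rule, 48 of them members. Identical rows counted once left 50, and 36 had whole counts throughout; both were chosen after the data were seen. For RNAi at 5 dpa, 2 members were called, where 7 rows in all were called lower. No filter gave 6 members of 16 rows called lower, the replicate block 1 of 4, DESeq2 16 of 36 and limma-voom 12 of 40. Leaving out a library gave 1 to 10 members, the highest without DjTcf4 RNAi intact replicate 2. The rows called lower then ran from 4 to 25. For RNAi in intact animals, limma-voom called 1 in place of 0, and leaving out a library gave 0. For the interaction, no filter gave 1, DESeq2 5 and limma-voom 2 in place of 0; leaving out a library gave 0 to 1. The cause was not tested. When a library was left out, members called for amputation ran from 36 to 48 in control and from 46 to 51 with RNAi. Over all rows tested, those called lower ran from 1800 to 3843 in control and from 486 to 3266 with RNAi. Samples share replicate numbers, and with so few libraries per group it cannot be settled whether the numbers pair them. Correlations of same-numbered deviations ran from -0.328 to 0.212. Samples correlated best with their own number in 2 of 4 pairs between the control groups and 1 of 3 between the RNAi groups. Between RNAi and control this held for 0 of 4 pairs in intact animals and 0 of 3 at 5 dpa. The table's precision is limited in members with few counts at 5 dpa: 7 had a median under 3 CPM with RNAi.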
